A study of Mus musculus with 2 samples.

Results

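The genes described here are 10 chains of the non-fibrillar collagens in single-cell RNA-seq (scRNA-seq) of mouse fracture callus: Col10a1, Col9a1, Col9a2, Col9a3, Col4a1, Col4a2, Col6a1, Col6a2, Col12a1 and Col8a1. They were taken by gene symbol from both deposited matrices, as 10 of 32285 genes, and every member was detected in both libraries. The calluses came from femoral fractures of wild-type (wt) mice, which the study's methods give as 12-week-old male C57BL/6J animals. The design covered 10 days (n = 5) and 20 days (n = 5) post fracture (dpf), but the labels of the 2 libraries, MGJ and MGJ2, gave neither a day. Neither library could be traced to single mice, so the libraries are reported side by side, with no replicate and no test between them. Every interval below is a 95% interval that covers counting error only.

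Non-fibrillar collagens do not form the banded fibrils of type I or type II collagen. Type X collagen (Col10a1) and type VIII collagen (Col8a1) are short chains that assemble into networks, and type X is the classical product of hypertrophic chondrocytes, the enlarged cells of cartilage that is about to be replaced by bone. Type IX (Col9a1, Col9a2, Col9a3) and type XII (Col12a1) collagens sit on the surface of fibrils, type IX in cartilage and type XII in tendon, fascia and periosteum. Type IV chains (Col4a1, Col4a2) build the sheet of basement membranes, and type VI chains (Col6a1, Col6a2) form beaded filaments around cells.

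On GRCm38, Col10a1 lies at chr10:34389981-34397085 on the plus strand. The type IX genes are unlinked, with Col9a1 at chr1:24177610-24252684, Col9a2 at chr4:121039385-121055322 and Col9a3 at chr2:180597790-180622189. Col4a1 at chr8:11198423-11312826 and Col4a2 at chr8:11312805-11449287 run head to head on opposite strands, and their gene models share 22 bases. Col6a1 at chr10:76708792-76726168 and Col6a2 at chr10:76595762-76623630 lie on the same strand, 85161 bases apart. Col12a1 lies at chr9:79598991-79718831 and Col8a1 at chr16:57624258-57754737.

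Promoter windows (250 bases before to 50 after a start, RefSeq, GRCm38.p6) were found for 8 of the 10 members, 10 windows in all. Col10a1 is shown first because it was the only member with at least 50 UMIs that was 2-fold higher in hypertrophic-like cells. Capitals mark matches, on either strand, to the letters of known motifs. For the core that SOX factors bind, ACAAAG was searched first, and the alternative form ACAATG was searched as well. The other letters were TGTGGT for the core bound by RUNX factors, TGANTCA for the AP-1 site and TATAAA for the box found near many starts. The window at chr10:34389731-34390030 held ACAAAG 185 bases and TATAAA 32 bases before the start. Of all 32851 windows, 18.7% held ACAAAG and 13.6% held TATAAA. The shares were 12.6% for ACAATG, 16.8% for TGTGGT and 7.81% for TGANTCA, none of which the Col10a1 window held. Among windows not shown, that of Col6a1 held TGACTCA 90 bases and that of Col8a1 TGTGGT 230 bases before the start.
Col10a1 (plus strand): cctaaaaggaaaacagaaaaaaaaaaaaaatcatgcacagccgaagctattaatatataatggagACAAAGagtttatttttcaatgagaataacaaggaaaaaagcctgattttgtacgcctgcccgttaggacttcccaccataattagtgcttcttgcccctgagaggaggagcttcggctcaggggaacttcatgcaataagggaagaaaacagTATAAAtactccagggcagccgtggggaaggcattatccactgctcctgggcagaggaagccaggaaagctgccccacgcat

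Type IX windows are shown because these chains moved together across classes. Col9a1 has a pair of windows, at chr1:24177360-24177659 and chr1:24194953-24195252, and counts taken at the 3′ end do not tell transcripts from these starts apart. None of the searched letters was in either of them or in the Col9a2 window at chr4:121039316-121039615.
Col9a1, upstream start (plus strand): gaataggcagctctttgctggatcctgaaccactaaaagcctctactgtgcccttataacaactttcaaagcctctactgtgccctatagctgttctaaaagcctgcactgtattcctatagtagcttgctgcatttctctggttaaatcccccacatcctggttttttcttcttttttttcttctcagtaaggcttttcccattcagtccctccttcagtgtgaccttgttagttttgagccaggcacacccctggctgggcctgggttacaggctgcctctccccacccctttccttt
Col9a1, downstream start (plus strand): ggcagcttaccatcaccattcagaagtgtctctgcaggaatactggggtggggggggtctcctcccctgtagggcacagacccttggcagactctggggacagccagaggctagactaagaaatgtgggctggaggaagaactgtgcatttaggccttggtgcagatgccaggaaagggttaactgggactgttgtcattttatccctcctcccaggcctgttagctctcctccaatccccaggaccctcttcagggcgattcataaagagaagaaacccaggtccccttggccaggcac
Col9a2 (plus strand): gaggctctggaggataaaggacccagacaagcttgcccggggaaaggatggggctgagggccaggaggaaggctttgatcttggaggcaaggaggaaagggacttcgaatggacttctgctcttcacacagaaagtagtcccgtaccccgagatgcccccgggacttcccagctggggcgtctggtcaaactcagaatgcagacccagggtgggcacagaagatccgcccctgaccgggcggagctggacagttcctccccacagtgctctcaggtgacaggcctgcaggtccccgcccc

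The type IV windows, chr8:11312555-11312854 for Col4a2 and chr8:11312777-11313076 for Col4a1, are shown because they overlap by 78 bases. Here capitals mark those shared bases, which read as reverse complements of each other.
Col4a2 (plus strand): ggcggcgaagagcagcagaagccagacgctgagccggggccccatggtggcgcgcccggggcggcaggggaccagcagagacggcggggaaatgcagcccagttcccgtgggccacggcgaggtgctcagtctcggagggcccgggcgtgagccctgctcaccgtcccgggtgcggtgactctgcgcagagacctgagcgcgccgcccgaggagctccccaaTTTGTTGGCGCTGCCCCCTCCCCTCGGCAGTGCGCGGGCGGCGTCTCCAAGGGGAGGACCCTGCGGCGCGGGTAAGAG
Col4a1 (minus strand): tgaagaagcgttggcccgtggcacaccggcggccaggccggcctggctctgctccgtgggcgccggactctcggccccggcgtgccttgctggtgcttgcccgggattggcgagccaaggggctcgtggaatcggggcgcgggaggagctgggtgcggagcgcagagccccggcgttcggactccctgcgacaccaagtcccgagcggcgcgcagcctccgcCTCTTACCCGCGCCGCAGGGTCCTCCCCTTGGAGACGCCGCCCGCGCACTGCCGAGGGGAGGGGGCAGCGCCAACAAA

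Library MGJ held 14295 barcodes and 135304426 UMIs (unique molecular identifiers, one per captured RNA molecule), and library MGJ2 held 8009 barcodes and 61130834 UMIs. After filtering, 13460 and 7583 cells were kept, and 19 barcodes occurred in both libraries. Cells were put into classes by marker genes that included none of the members, and no non-fibrillar collagen was used for clustering. Chondrocyte-like cells numbered 2548 in library MGJ and 135 in MGJ2, of which 572 and 74 were hypertrophic-like. All 10 markers of the chondrocyte list were higher in these cells than in the remaining cells, in both libraries. A further 321 and 9 cells were set aside because neutrophil or macrophage genes led their sub-clusters. Of the 31 clusters, 17 drew over 90% of their cells from 1 library. Levels are given as UMIs of a gene per 1000000 UMIs of a class (CPM), and each UMI is a counted 3′ end, so levels were compared between classes for 1 gene and not between genes.

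**Figure D1:**
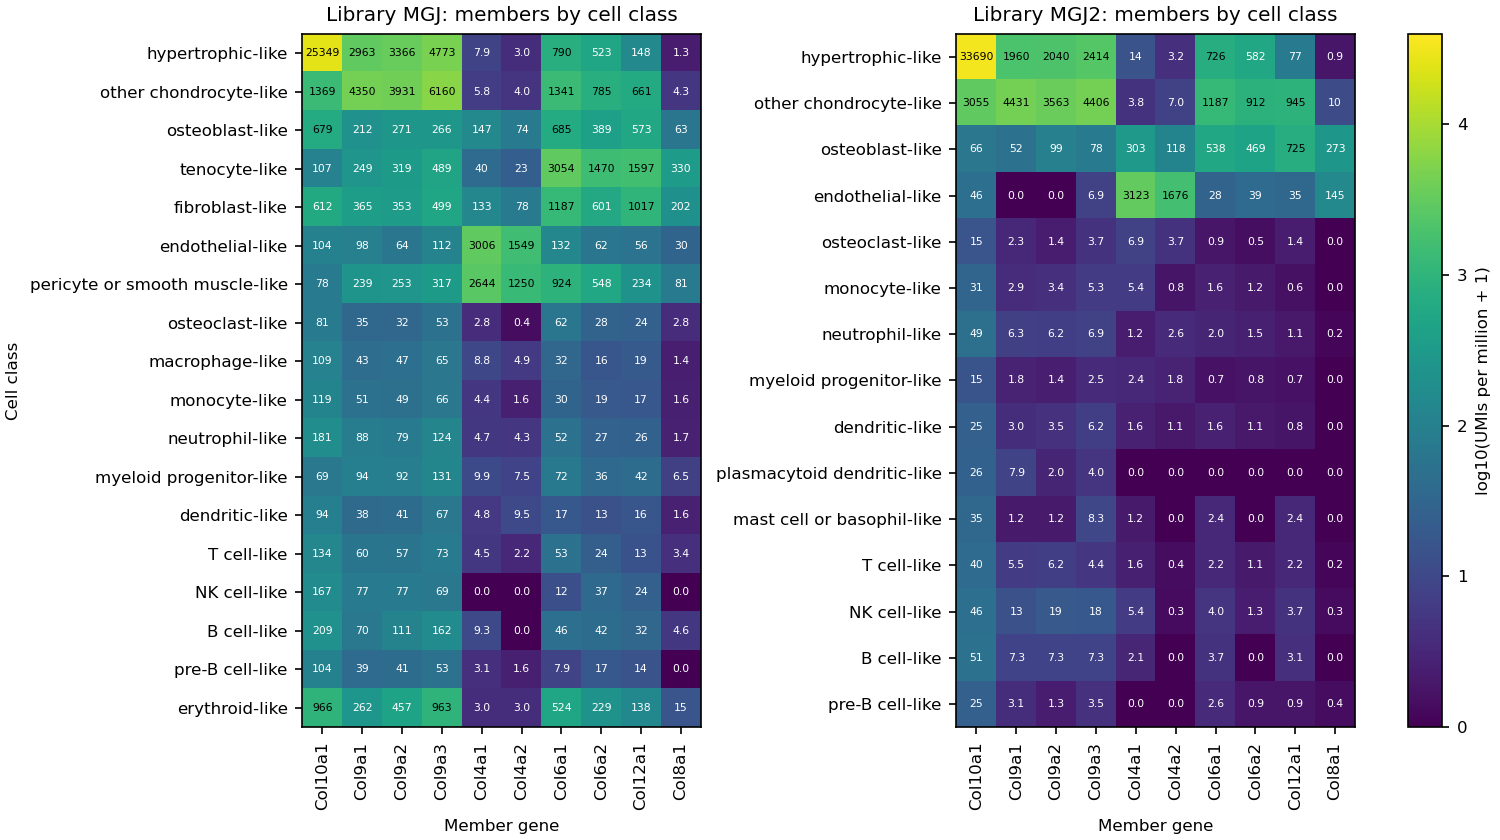
Level of the 10 members (columns) in every class of at least 50 cells (rows), printed in CPM and coloured on a log10 scale, for library MGJ (left) and MGJ2 (right). Col10a1 reached 25349 and 33689.8 CPM in hypertrophic-like cells, type IV chains were highest in endothelial-like cells, and type VI chains and Col12a1 were spread over several mesenchymal classes.

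Col10a1 was by far highest in hypertrophic-like cells in both libraries. Its level there was 25349 CPM (25259 to 25439.8) in library MGJ and 33689.8 CPM (33445.5 to 33935) in MGJ2. In the other chondrocyte-like cells it was 1369 CPM (1358 to 1381) and 3055 CPM (2977 to 3136). The hypertrophic-like level was thus 18.5 (18.3 to 18.7) times the other in library MGJ and 11.03 (10.7 to 11.3) times in MGJ2. The MGJ2 value moved to 20.4 at a clustering resolution of 0.5, 17.1 with up to 10% mitochondrial UMIs and 19.1 without the highest doublet scores, and MGJ2 clustered alone gave no hypertrophic-like sub-cluster. Hypertrophic-like cells had been named from other genes, among them Ihh, which encodes the hedgehog ligand of prehypertrophic cartilage, Ibsp and Mmp13, and all 10 markers of that list were higher in them in library MGJ. In MGJ2, 8 of the 10 were, and Panx3 and Runx3 were not.

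Single cells of both chondrocyte groups spread widely. In library MGJ, hypertrophic-like cells had a median of 22954 CPM of Col10a1, with a 10th percentile of 2392, a 90th percentile of 57763 and 4 of 572 cells at 0. The other chondrocyte-like cells had a median of 117 and a 90th percentile of 2624, and 344 of 1976 cells were at 0. Library MGJ2 gave medians of 25592 and 43.0, with 0 of 74 and 23 of 61 cells at 0. The ranges overlapped, since single cells outside the hypertrophic-like group reached 68875 in library MGJ and 24309.6 in MGJ2. In MGJ2, 10 of the 61 other chondrocyte-like cells held 92.5% of that group's Col10a1 UMIs, and without them its level was 298 CPM. In library MGJ the corresponding share was 17.5%, and the level without those 10 cells was 1140 CPM.

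Among the other chondrocyte-like sub-clusters of library MGJ, Col10a1 ran from 185 CPM to 3517 CPM. The lowest levels were in the sub-clusters led by Hp and Saa3, acute-phase genes (185 CPM, 47 cells), by Penk (194 CPM, 798 cells) and by the cell-cycle genes Ube2c and Top2a (427 CPM, 122 cells). Intermediate levels were found where Slc40a1 and Id3 led (1718 CPM, 260 cells), where AW112010 and Nos2 led (2417 CPM, 570 cells) and where H2-Ab1 led (3517 CPM, 179 cells). Counting intervals of the lowest pair, 185 and 194 CPM, overlapped. Col12a1 did not follow the reverse order, with 1063 CPM in the Slc40a1-led cells, 739 CPM in the Penk-led cells and 471 CPM in the Hp-led cells. In library MGJ2 no other sub-cluster held more than 28 cells, and no order was read.

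**Figure D2:**
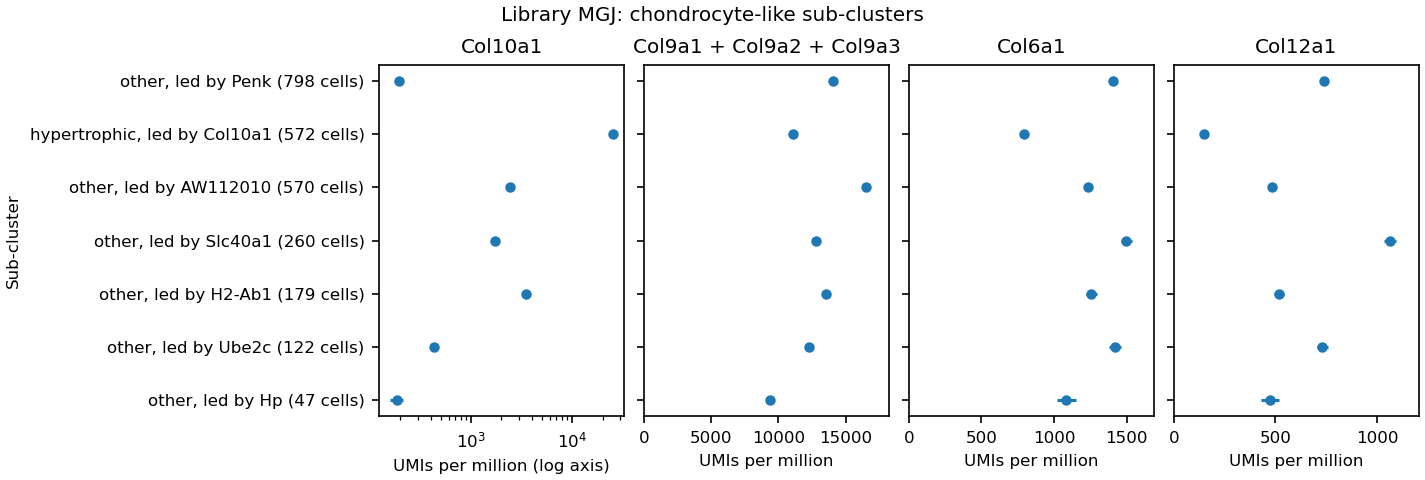
Levels of Col10a1 (log axis), summed type IX chains, Col6a1 and Col12a1 in CPM in the chondrocyte-like sub-clusters of library MGJ, with points for the level and bars for the 95% counting interval. Col10a1 spans 185 to 25349 CPM over the rows, while the summed type IX level stays between 9389.7 and 16505 CPM.

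Col10a1 UMIs were also found in cells that should lack the gene. Neutrophil-like cells held 181 CPM (174 to 189), or 0.481 UMIs per barcode, in library MGJ and 49.2 CPM (45.2 to 53.5), or 0.225 UMIs per barcode, in MGJ2. After thinning each cell to 2000 UMIs, 95.7% (93.7 to 97.2) of hypertrophic-like, 34.4% (32.3 to 36.6) of other chondrocyte-like and 27.5% (25.7 to 29.4) of neutrophil-like cells in library MGJ had a Col10a1 UMI. Unthinned, the shares were 99.3%, 82.6% and 35.2%, at median depths of 20985, 20956.5 and 1918.5 UMIs, and thinning left out 11, 28 and 2698 cells. In MGJ2 the thinned shares were 94.6% (86.7 to 98.5), 31.1% (19.9 to 44.3) and 11.97% (10.5 to 13.5). Unthinned, they were 100%, 62.3% and 18.5%, at median depths of 27371.5, 30695 and 2565 UMIs, with 604 neutrophil-like cells left out. The thinned neutrophil-like shares do not give a background for the other chondrocyte-like cells. Thinning to 2000 UMIs discarded most UMIs of those deeper cells, captured free RNA included, but far fewer of the neutrophil-like cells. Before thinning, the other chondrocyte-like cells held 28.9 Col10a1 UMIs per barcode in library MGJ and 93.3 in MGJ2, against 0.481 and 0.225 in neutrophil-like cells. These are means, and in MGJ2 10 of the 61 cells held 92.5% of the UMIs.

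RNA that is free in the cell suspension should keep its genes in 1 ratio wherever it is captured, so Col10a1 was set against Col2a1, the type II collagen chain of cartilage. Neutrophil-like cells had 232 (223 to 242) Col10a1 UMIs per 1000 Col2a1 UMIs in library MGJ and 838 (769 to 911) in MGJ2. Chondrocyte-like cells as a whole had 122 and 437, hypertrophic-like cells 499 and 996, and the other chondrocyte-like cells 24.3 and 53.4. The Col10a1 ratio in neutrophil-like cells therefore lay between those of both chondrocyte groups, and above that of all chondrocyte-like cells together. Type IX chains did not lie between the groups. Neutrophil-like cells of library MGJ had 112 Col9a1 UMIs per 1000 Col2a1 UMIs, against 58.3 in hypertrophic-like and 77.2 in the other chondrocyte-like cells. In MGJ2 the values were 108, 57.9 and 77.5. Col9a2 and Col9a3 also lay above both groups in both libraries, and the cause was not tested.

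Of the 15 other classes of library MGJ, 8 had a ratio to the neutrophil-like value whose interval included 1, and these were the blood and marrow classes apart from erythroid-like and myeloid progenitor-like cells. The ratio was lowest in pericyte or smooth muscle-like (0.0917, 0.0742 to 0.112) and tenocyte-like cells (0.116, 0.109 to 0.124). In the former, 10 of 143 barcodes held 92.2% of the Col2a1 UMIs that set this ratio, and the Col2a1 level without them was 345 CPM. Only osteoblast-like cells lay above 1, at 1.11 (1.03 to 1.20). In MGJ2, 10 of 12 classes included 1, and NK cell-like (0.404, 0.332 to 0.488) and osteoblast-like cells (0.132, 0.0927 to 0.183) lay below it. Both values rested on few Col2a1-rich barcodes, since 10 of 691 NK cell-like cells held 63.5% and 10 of 66 osteoblast-like cells 91.2% of the Col2a1 UMIs of their class. Without those barcodes Col2a1 was at 51.3 and 78.0 CPM. With T, B, pre-B and NK cell-like cells as the reference, free Col10a1 stood at 136 CPM in library MGJ and 40.3 CPM in MGJ2.

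**Figure D3:**
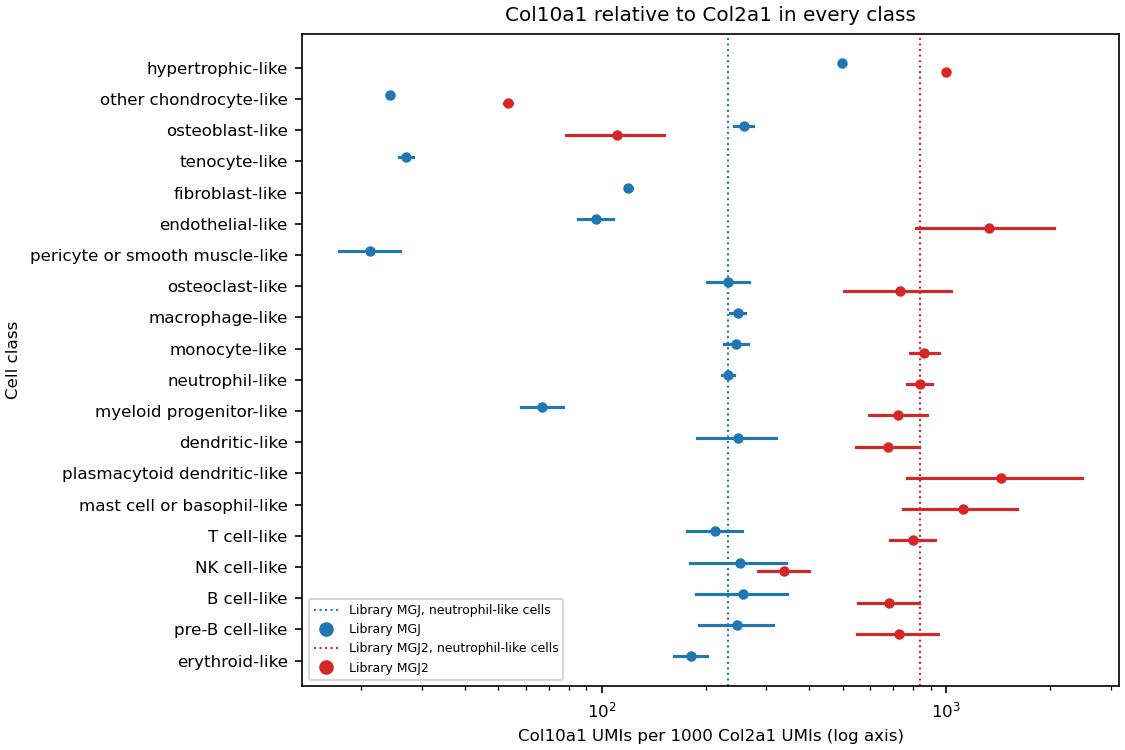
Col10a1 UMIs per 1000 Col2a1 UMIs (log axis) in every class, with 95% counting intervals, for library MGJ (blue) and MGJ2 (red), and dotted lines at the neutrophil-like value of each library (232 and 838). Most blood and marrow classes sit on the line of their library, the other chondrocyte-like cells lie at 24.3 and 53.4, and tenocyte-like and pericyte-like cells of library MGJ lie at 27.0 and 21.3.

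Outside the chondrocyte-like cells, class levels of library MGJ with intervals above the neutrophil-like value rested in large part on few barcodes. B cell-like cells had 209 CPM (152 to 279) in library MGJ and 50.6 CPM (41.1 to 61.8) in MGJ2. These intervals included the neutrophil-like values. In library MGJ, 10 of 75 erythroid-like cells held 94.4% of that class's Col10a1 UMIs, 10 of 636 fibroblast-like cells 73.4% and 10 of 249 osteoblast-like cells 72.8%. Their levels fell from 966 to 84.0 CPM, from 612 to 168 CPM and from 679 to 191 CPM once those 10 barcodes were left out, against 172 CPM in neutrophil-like cells treated alike. No counting interval was taken for these reduced levels, so the difference between 191 CPM in osteoblast-like and 172 CPM in neutrophil-like cells is not resolved. In neutrophil-like cells, 10 of 5018 barcodes held 5.34% of the UMIs. No doublet was called automatically in library MGJ, and the part of doublets in these few barcodes was not tested.

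Type IX chains were abundant in chondrocyte-like cells. In library MGJ, Col9a1 was at 4041 CPM (4024 to 4058), Col9a2 at 3805 CPM (3789 to 3822) and Col9a3 at 5851 CPM (5831 to 5872) in chondrocyte-like cells. In MGJ2 the levels were 3104 CPM (3049 to 3158), 2745 CPM (2694 to 2797) and 3336 CPM (3279.96 to 3393). Summed over the 3 chains, library MGJ gave 8.73 (8.68 to 8.79) times the level of all other cells and MGJ2 139 (134 to 144) times. The sub-clusters that had been set aside count among the other cells, and without them the ratios were 23.4 (23.1 to 23.6) and 459.8 (433 to 489). A Col9a1 UMI was present in 94.9% (94.0 to 95.8) of thinned chondrocyte-like cells of library MGJ, against 13.02% (11.7 to 14.5) of neutrophil-like cells. The corresponding shares in MGJ2 were 74.1% (65.8 to 81.2) and 1.94% (1.36 to 2.68). In endothelial-like cells of MGJ2, 0 Col9a1 UMIs were counted, which by the limit of 3 counts allows a level of up to 6.93 CPM.

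Hypertrophic-like cells held less of all 3 chains than the pooled remaining chondrocyte-like cells. The Hp-led sub-cluster of library MGJ was an exception, since its summed type IX level of 9389.7 CPM (9200.4 to 9582) lay below the hypertrophic-like 11102 CPM (11043 to 11162). In library MGJ the ratio was 0.681 (0.673 to 0.689) for Col9a1, 0.856 (0.847 to 0.866) for Col9a2 and 0.775 (0.768 to 0.782) for Col9a3. In MGJ2 it was 0.442 (0.426 to 0.459), 0.573 (0.551 to 0.595) and 0.548 (0.529 to 0.567). There, 10 of 74 hypertrophic-like cells held 64.2%, 49.6% and 60.4% of the UMIs of these chains. Without the top 10 cells of each group, the levels were 926, 1335 and 1269 CPM against 3487, 3068 and 3553 CPM. Col9a1 thus had the lowest ratio of the chains in both libraries. Its share of type IX UMIs was 26.7% (26.5 to 26.9) in hypertrophic-like and 30.1% (30.01 to 30.2) in the remaining cells of the class in library MGJ, and 30.6% (29.8 to 31.3) and 35.7% (35.1 to 36.4) in MGJ2. Col2a1, which is a marker of the chondrocyte class and is given as a description, had ratios of 0.902 (0.900 to 0.905) and 0.591 (0.586 to 0.597).

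**Figure D4:**
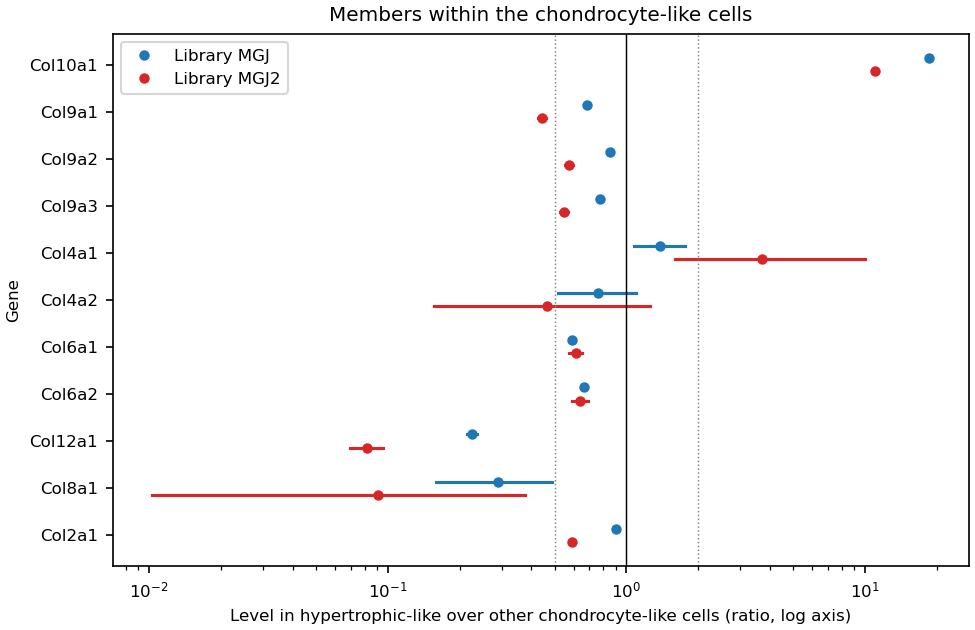
Ratio of the level in hypertrophic-like over other chondrocyte-like cells for each member and Col2a1 (log axis), with points for the ratio, bars for the 95% counting interval and dotted lines at 0.5 and 2. Col10a1 stands at 18.5 in library MGJ and 11.03 in MGJ2, and Col12a1 at 0.224 and 0.0818, on opposite sides of 1.

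In library MGJ, type IX counts were lowest where Col10a1 was highest and were not lower where Col10a1 first appeared, whereas in MGJ2 each bin was below the one before it. Chondrocyte-like cells were thinned to 5000 UMIs and binned by their Col10a1 UMIs. In library MGJ the mean summed type IX count was 71.8 (71.4 to 72.2) in 1611 cells with 0 to 4 Col10a1 UMIs and 76.3 (75.1 to 77.5) in 203 cells with 5 to 19. It was 66.4 (65.4 to 67.3) in 285 cells with 20 to 99 and 45.3 (44.6 to 46.1) in 316 cells with 100 or more. The medians were 71, 77, 71 and 44. In MGJ2 the means were 60.9 (58.8 to 63.0) in 52 cells, 51.3 (47.7 to 55.0) in 15 cells, 38.9 (36.1 to 41.8) in 19 cells and 20.8 (19.5 to 22.3) in 42 cells. The middle bins of MGJ2 held under 20 cells each, and the first and the last bin alone differed in the same direction. Col10a1 itself took a mean of 207 and 274 of the 5000 UMIs in the last bin. Hypertrophic-like cells made up 1.92%, 20.7%, 58.9% and 93.0% of the bins in library MGJ.

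**Figure D5:**
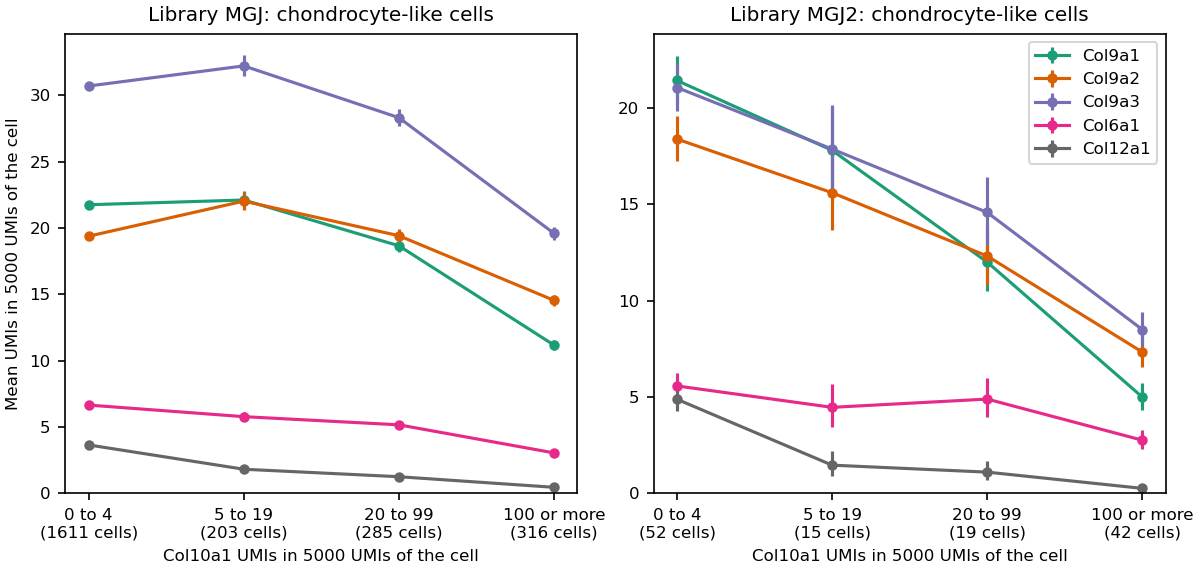
Mean UMIs of type IX chains, Col6a1 and Col12a1 in chondrocyte-like cells thinned to 5000 UMIs, by bins of Col10a1 UMIs, for library MGJ (left) and MGJ2 (right), with 95% counting intervals as bars. Col9a1, Col9a2 and Col9a3 stay near their starting level up to 99 Col10a1 UMIs and drop in the last bin in library MGJ, whereas Col12a1 is lower in each later bin, from 3.65 to 0.462.

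Over all members, 1 of 10 (Col10a1) was at least 2-fold higher in hypertrophic-like cells of library MGJ and 2 of 10 (Col12a1, Col8a1) at least 2-fold lower. Of all 12293 genes with at least 50 UMIs in both groups together, 7.09% were 2-fold higher and 10.3% 2-fold lower. In MGJ2, 7 members passed that minimum, of which Col10a1 was higher and Col9a1 and Col12a1 were lower, against 7.03% and 6.92% of 6489 genes. Col4a1, Col4a2 and Col8a1 did not pass in MGJ2. The median log2 ratio was -0.47 over the members and -0.048 over all genes in library MGJ, and -0.80 and 0.0056 in MGJ2.

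Set against all other cells, 4 of 10 members (Col10a1 and the type IX chains) were at least 2-fold higher in chondrocyte-like cells of library MGJ, where 12.5% of 14765 genes were. In MGJ2, 7 of 10 were, with Col6a1, Col6a2 and Col12a1 in addition, against 20% of 13065 genes. Library MGJ held 912 tenocyte-like and 636 fibroblast-like cells that carried these added genes, and MGJ2 held 8 and 0. Whether these cells account for the difference between the libraries was not tested.

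Type IV chains were highest in cells of the vessel wall. Endothelial-like cells had 3006 CPM (2943 to 3071) of Col4a1 and 1549 CPM (1504 to 1596) of Col4a2 in library MGJ, and 3123 CPM (2959 to 3294) and 1676 CPM (1556 to 1802) in MGJ2. Both chains together were 61.7 (60.1 to 63.3) and 162 (152 to 173) times the level of all other cells. Of the members, Col4a1 and Col4a2 were at least 2-fold higher in endothelial-like cells of library MGJ, against 19.2% of all genes, and Col4a1, Col4a2 and Col8a1 in MGJ2, against 22.3%. Pericyte or smooth muscle-like cells of library MGJ came next, with 2644 CPM (2555 to 2735) of Col4a1 and 1249.5 CPM (1189 to 1313) of Col4a2. Endothelial-like cells were above them by a ratio of 1.17 (1.13 to 1.21) for both chains together. The median cell gave the reverse order, with 2361 CPM of Col4a1 in endothelial-like and 2593 CPM in pericyte or smooth muscle-like cells, and 1198 and 1259 CPM of Col4a2. MGJ2 held 9 such cells and gave no value. A Col4a1 UMI was present in 95.9% (92.3 to 98.1) of thinned endothelial-like and 0.647% (0.362 to 1.06) of neutrophil-like cells of library MGJ. In MGJ2, 10 of the 50 endothelial-like cells held 64.3% of the Col4a1 UMIs, and the level without them was 2271 CPM.

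Col4a1 made up 66.0% (65.2 to 66.8) of type IV UMIs in endothelial-like, 67.9% (66.6 to 69.2) in pericyte or smooth muscle-like, 63.2% (61.3 to 65.1) in fibroblast-like and 63.7% (60.7 to 66.8) in tenocyte-like cells of library MGJ. In MGJ2 it was 65.1% (63.0 to 67.1) in endothelial-like and 72.0% (66.0 to 77.5) in osteoblast-like cells. Chondrocyte-like cells had 6.24 CPM of Col4a1 and 3.74 CPM of Col4a2 in library MGJ, against 4.65 and 4.28 CPM in neutrophil-like cells. These levels do not compare free RNA per barcode, since median depths were 20961 and 1918.5 UMIs. The Col4a1 counts were 335 UMIs in 2548 chondrocyte-like and 62 in 5018 neutrophil-like cells, and 10 chondrocyte-like cells held 49.3% of the 335. Within the chondrocyte-like cells of library MGJ, Col4a1 in hypertrophic-like cells had a ratio to the rest of 1.38 (1.08 to 1.76), from 95 and 240 UMIs. In MGJ2 the ratio was 3.69 (1.59 to 9.96), from 30 and 7 UMIs, which is below the minimum of 50 UMIs. Col4a2 had ratios of 0.761 (0.515 to 1.097) and 0.464 (0.157 to 1.25), and both chains together 1.13 (0.920 to 1.38) and 1.59 (0.902 to 2.90), intervals that included 1. In library MGJ, 10 of the 1976 other chondrocyte-like cells held 57.5% of the 240 UMIs.

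Type VI chains were highest in tenocyte-like cells, which express the tendon genes Tnmd and Thbs4, and were present in every mesenchymal class. In library MGJ, Col6a1 was at 3054 CPM (3027 to 3082) and Col6a2 at 1470.3 CPM (1451 to 1489) in tenocyte-like cells, together 3.68 (3.65 to 3.72) times the level of all other cells. The summed levels that followed were 1945 CPM in chondrocyte-like, 1788 CPM in fibroblast-like and 1472 CPM in pericyte or smooth muscle-like cells. Next were osteoblast-like cells at 1074 CPM, erythroid-like cells at 752 CPM and endothelial-like cells at 194 CPM. Neutrophil-like cells had 78.9 CPM. Of the Col6a1 UMIs, 10 of 75 erythroid-like cells held 98.3% and 10 of 284 endothelial-like cells 72.0%. Without the 10 barcodes richest in each gene, Col6a1 was at 11.5 and 42.2 CPM in these classes. Col6a2 was then at 4.21 and 19.2 CPM. Neutrophil-like cells treated alike had 45.6 CPM of Col6a1 and 23.9 CPM of Col6a2. Fibroblast-like cells, led by Cxcl5, were thus only 1.12 (1.103 to 1.13) times the level of all other cells, and neither chain was 2-fold higher there. The ratio depended on how the fibrous cells were divided. It was 2.53 at a clustering resolution of 0.5, 2.54 with doublet calls kept and 2.45 with a minimum of 500 genes, settings that left no tenocyte-like class, and 2.16 with every cell weighted equally. The members that were 2-fold higher in fibroblast-like cells were Col12a1 and Col8a1, 2 of 10 against 9.41% of all genes. In MGJ2, chondrocyte-like cells had 1674 CPM, osteoblast-like cells 1006 CPM, endothelial-like cells 66.9 CPM and neutrophil-like cells 3.47 CPM.

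Within chondrocyte-like cells, both type VI chains together were lower in the hypertrophic-like ones, with ratios of 0.618 (0.607 to 0.628) and 0.623 (0.594 to 0.654) in the libraries. The share of Col6a1 among their UMIs was 67.5% (67.2 to 67.8) in tenocyte-like and 62.6% (62.4 to 62.9) in chondrocyte-like cells of library MGJ, and 56.1% (54.9 to 57.3) in chondrocyte-like cells of MGJ2.

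Col12a1 followed the fibrous classes and was lowest, among the chondrocyte-like cells, in the hypertrophic-like ones. In library MGJ it was at 1597 CPM (1577 to 1617) in tenocyte-like, 1017 CPM (999 to 1036) in fibroblast-like, 573 CPM (533 to 615) in osteoblast-like and 547 CPM in chondrocyte-like cells. Intervals of the last pair overlapped, and neutrophil-like cells had 26.3 CPM. However, 10 of the 249 osteoblast-like cells held 42.6% of the UMIs. Without the top 10 cells of each class, the levels were 382 CPM in osteoblast-like and 535 CPM in chondrocyte-like cells. The median cell had 0 and 405 CPM, at median depths of 1650 and 20961 UMIs. In MGJ2, osteoblast-like cells had 725 CPM (658 to 797) and chondrocyte-like cells 479 CPM (458 to 501), while neutrophil-like cells had 1.07 CPM. Without the 10 of 66 osteoblast-like cells with the most UMIs of the gene, the level there was 289.6 CPM. Hypertrophic-like cells had 148 CPM in library MGJ against 661 CPM in the chondrocyte-like remainder, a ratio of 0.224 (0.214 to 0.235). In MGJ2 the levels were 77.3 and 945 CPM, a ratio of 0.0818 (0.0694 to 0.0959). After thinning, 20.0% (16.7 to 23.5) of hypertrophic-like and 64.4% (62.3 to 66.6) of the remaining chondrocyte-like cells in library MGJ had a Col12a1 UMI, against 4.78% (3.95 to 5.73) of neutrophil-like cells.

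Col8a1, the short-chain relative of Col10a1, had a pattern unlike it. In library MGJ it was highest in tenocyte-like cells, at 330.2 CPM (321 to 339), followed by fibroblast-like cells at 202 CPM (194 to 210.4) and pericyte or smooth muscle-like cells at 80.9 CPM (65.9 to 98.2). Chondrocyte-like cells had 3.65 CPM and neutrophil-like cells 1.65 CPM. Within the chondrocyte-like cells the gene was lower in the hypertrophic-like ones, with 15 against 181 UMIs and a ratio of 0.289 (0.159 to 0.490). In MGJ2 it was highest in osteoblast-like cells, at 273 CPM (233 to 318), where 10 of 66 cells held 85.2% of the UMIs. Endothelial-like cells of MGJ2 had 145 CPM (112 to 186), and all 63 UMIs came from 10 of 50 cells.

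The genes whose levels over classes were most like those of a member were ranked by Pearson's r of log2(CPM + 10) over 17 classes in library MGJ and 14 in MGJ2. For Col9a1 they were Hapln1 (r = 0.990), Col2a1 (0.989) and Col9a2 (0.983) in library MGJ, and Hapln1 (0.992), Chadl (0.991) and Matn3 (0.990) in MGJ2. Those of Col10a1 were Car8 (0.961), Crispld1 (0.946) and Flvcr2 (0.938) in library MGJ and C1qtnf3 (0.990), Krt16 (0.987) and Matn3 (0.987) in MGJ2. Col4a1 was closest to Col4a2 in both libraries (0.993 each). Col6a1 was closest to Loxl2 (0.981) and Cpe (0.996), Col12a1 to Dcn (0.988) and Ogn (0.997), and Col8a1 to Aspn (0.967) in library MGJ. The points share libraries and free RNA, and genes high in a single class correlate with each other whatever their function.

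Of 23 further non-fibrillar collagen genes, 17 had at least 50 UMIs in library MGJ and 10 in MGJ2. In library MGJ, 6 had their highest value in osteoblast-like, 3 in fibroblast-like, 3 in tenocyte-like and 2 in pericyte or smooth muscle-like cells, with 1 each in chondrocyte-like, endothelial-like and B cell-like cells. Several of these places were not resolved by counting error, as for Col4a4 in B cell-like and Col25a1 and Col26a1 in osteoblast-like cells, whose intervals overlapped those of the next class. In MGJ2, 4 were highest in chondrocyte-like, 3 in osteoblast-like, 2 in endothelial-like and 1 in osteoclast-like cells. Intervals of the top and the next class overlapped there for Col4a4, Col4a5, Col6a3, Col7a1, Col8a2 and Col14a1. Col7a1 was the gene placed in osteoclast-like cells, and Col16a1 alone was resolved among those placed in chondrocyte-like cells. Col13a1, a transmembrane collagen, was at 104 CPM (87.3 to 122) in osteoblast-like cells of library MGJ and 67.4 CPM (48.2 to 91.8) in MGJ2. Col18a1, the source of endostatin, was at 693 and 690.2 CPM in endothelial-like cells, and at 949 CPM in pericyte or smooth muscle-like cells of library MGJ. Col6a3, the third common type VI chain, was at 1908 CPM (1886 to 1929) in tenocyte-like cells of library MGJ, the class where Col6a1 and Col6a2 were highest. Col14a1, a relative of Col12a1, was at 352 CPM (341 to 362) in fibroblast-like and 107 CPM in tenocyte-like cells, the reverse of the order of Col12a1.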

How the data were processed

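The 2 scRNA-seq libraries of enzyme-digested femoral fracture callus were each made with the 10x 3′ version 3 chemistry and aimed at 5000 cells. The authors deposited, per the file headers, unnormalised UMI counts per gene and barcode from Cell Ranger 4.0.0, with GRCm38 named in the submitters' processing notes, as barcodes already called as cells. Barcodes with at least 200 genes and at most 20% mitochondrial UMIs were kept. Scrublet, run in scanpy 1.11.5, marked 223 barcodes (2.86%) in library MGJ2, which were removed. It marked 0 of 13460 in library MGJ, where loading predicts 10.8%, so the caller did not work there and doublets remain in that library. Both libraries were clustered together without integration (2000 variable genes with the non-fibrillar collagens left out, 30 components, Leiden resolution 1, chondrocyte-like clusters again at 0.5).

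Clusters were named from 25 marker lists. The rule that gave a cluster its next-best list (tenocyte-like) and the check that set 2 sub-clusters aside were written after the clusters were seen and before member values were read. The leading genes of the clusters did include members, with Col8a1 in the tenocyte-like, Col10a1 in a chondrocyte-like and Col4a1 in the endothelial-like cluster. These steps were therefore not blind to the members, although no member counted as a marker. Classes under 50 cells were not shown. Levels are summed UMIs of a class per 1000000, with exact Poisson intervals, ratios carry exact conditional binomial intervals and shares Clopper-Pearson intervals, all at 95% and for counting error only. Genes with at least 50 UMIs in both sides together and a 2-fold ratio were counted as higher or lower. Shares were taken after thinning cells to 2000 UMIs, and a count of 0 was read as up to 3 counts. The labels give neither library a day or a group, so no test was made and the libraries were never pooled. Named genes were the members, 23 further non-fibrillar collagens with at least 50 UMIs in a library, Col2a1, class markers, and the 3 genes most correlated with a member among those with at least 500 UMIs. Genes that lead a cluster or sub-cluster are named only to say which one is meant. The members and lists were chosen with earlier results of these data known. The scripts were tested on simulated counts.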

Additional observations from a re-analysis of the deposited data

Results flagged for a closer look

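Col10a1 was also counted in removed barcodes, which no main comparison used, and in set-aside sub-clusters, which counted only among all other cells. Both lay above the level of neutrophil-like cells (181 CPM in library MGJ and 49.2 CPM in MGJ2). The 835 barcodes removed for few genes or high mitochondrial share held 1011 CPM (959.9 to 1064) in library MGJ, and the 426 removed barcodes of MGJ2, doublet calls included, held 316 CPM (296 to 336). The sub-clusters set aside because neutrophil or macrophage genes led them held 5019 CPM (4967 to 5072) in 321 cells of library MGJ and 25322 CPM (24764 to 25889.5) in 9 cells of MGJ2. Their summed type IX level was 11802 CPM in library MGJ and 8099 CPM in MGJ2. The part of doublets in them was not tested.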

How the results depend on the processing

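Over 12 alternatives, 285 of 290 recomputed ratios kept their side of 1, but their size often changed. Of 302 recomputed values, 96 stayed within the counting interval of the main value, 204 moved outside it and 2 reversed. In 55 cases the value lay over 1.5 times away from the main one. Ratios are given below in a fixed order, library MGJ before MGJ2: Col10a1 and then summed type IX chains in hypertrophic-like over other chondrocyte-like cells (18.5 and 11.03, 0.769 and 0.517), and type IX chains in chondrocyte-like over all other cells (8.73 and 139). At Leiden resolution 0.5 they were 17.0 and 20.4, 0.750 and 0.445, and 6.42 and 53.5. At resolution 2 they were 20.5 and 13.1, 0.780 and 0.451, and 8.19 and 86.0. With up to 10% mitochondrial UMIs they were 17.6 and 17.1, 0.690 and 0.439, and 8.12 and 124. With doublet calls kept they were 17.2 and 11.7, 0.635 and 0.275, and 6.60 and 43.4. With every cell weighted equally they were 20.9 and 13.6, 0.727 and 0.420, and 18.0 and 221. With collagen genes in the clustering they were 18.3 and 13.6, 0.745 and 0.462, and 8.19 and 106. With a minimum of 500 genes they were 15.9 and 12.2, 0.632 and 0.285, and 7.77 and 111. With the highest doublet scores removed, an alternative chosen after seeing the data, they were 19.4 and 19.1, 0.695 and 0.423, and 13.9 and 128. With each library clustered alone they were 18.8 and 0.708 in library MGJ and 8.43 and 134, and MGJ2 then had no hypertrophic-like sub-cluster. Without the set-aside sub-clusters, also chosen after seeing the data, the last pair was 23.4 and 459.8.

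Type IV chains in endothelial-like over all other cells (61.7 and 162) were 63.8 and 176 with up to 10% mitochondrial UMIs, 52.6 and 217 with equal cell weights, and 84.0 and 258 with the highest doublet scores removed. Without the set-aside sub-clusters the ratio was 58.6 in library MGJ. Type VI chains in fibroblast-like over all other cells of library MGJ (1.12) were 2.53 at resolution 0.5, 2.54 with doublet calls kept and 2.45 with 500 genes, settings that gave no tenocyte-like class. The ratio was 2.16 with equal weights, 1.093 with each library alone and 1.087 with the highest scores removed. Direction changed for Col8a1 in hypertrophic-like cells of MGJ2 with doublet calls kept (1.51, few UMIs) and for type VI chains in osteoblast-like cells of library MGJ with equal weights (1.47, from 0.663). The 3 other ratios that crossed 1 were of Col4a2 in hypertrophic-like cells of library MGJ (0.761, with an interval that included 1), at 1.097 at resolution 2, 1.04 with each library alone and 1.19 with collagen genes in the clustering. The cause was not tested. In 28 cases an alternative gave no value because a class was absent. The osteoblast-like class in particular gave no value in 5 alternatives in library MGJ (resolution 0.5, 10% mitochondrial UMIs, collagen genes in the clustering, 500 genes, highest scores removed) and in 6 in MGJ2 (these and each library alone). No paired analysis was possible because the labels give no groups or replicate numbers. Each library stands alone, so nothing here measures spread between mice.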
